A study of Mus musculus with 13 samples.

Results

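The genes described here are 10 members of the BCL2 family of apoptosis regulators, out of 53379 genes counted in bulk RNA-seq libraries of mouse thymic stroma. They were taken by symbol from a fixed list of 4 anti-apoptotic genes (Bcl2, Bcl2l1, Bcl2l2 and Mcl1), 5 BH3-only genes (Bcl2l11, Bid, Bad, Bmf and Bik) and 1 effector (Bak1). The list leaves out Bax, Bbc3 and Pmaip1, the family genes best known as targets of p53. All 10 members passed the filter on lowly expressed genes.

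The libraries were made from CD45- thymic stroma of wild-type C57BL/6 mice aged 2 months. This fraction is meant to lack blood cells and to contain fibroblasts (FBs), endothelial cells (ECs) and thymic epithelial cells (TECs). Steady state had 4 libraries, and 3 were made on each of days 1, 4 and 7 following a sublethal dose of total body irradiation (TBI), which kills thymocytes and is followed by regrowth of the thymus. The labels call the steady-state mice untreated, whereas the columns of the count table name them as PBS controls, and they are listed below in the order PBS day 1 replicate 2, PBS day 4 replicate 2, PBS day 7 replicate 1 and PBS day 7 replicate 2. Libraries after TBI are listed in the order of replicates 1, 2 and 3. The labels do not say whether replicates came from separate mice. The paper's methods speak of biological replicates for the bulk counts, without giving the mice behind each library. P-values therefore measure the spread between these libraries only.

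BCL2 family proteins decide whether the outer membrane of the mitochondrion stays intact. The effectors BAK and BAX form pores in it that release cytochrome c and start the caspase cascade, and the anti-apoptotic proteins BCL2, BCL-XL, BCL-W and MCL1 hold them back. BH3-only proteins carry stress signals to this switch by occupying the anti-apoptotic proteins or by activating the effectors. In the thymus, BCL-XL keeps immature thymocytes alive, BIM takes part in the deletion of self-reactive thymocytes, and MCL1 is needed for the survival of TECs. Much of this control acts on the proteins rather than on RNA, which was the only quantity measured here.

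In edgeR's quasi-likelihood test, 0 of the 10 members passed an adjusted p of 0.05 in any of the 6 comparisons between conditions, where 0.005% to 8.13% of all genes did. DESeq2 placed 2 of the 10 past it at day 1 against steady state, and 1 each at days 4 and 7 against day 1, where it called 7.5%, 4.75% and 14.7% of all genes. The members nearest to it were Bcl2l11 (encoding BIM) and Bak1, both at day 1. Bcl2l11 was lower in all 3 day 1 libraries than in all 4 at steady state, with a log2 fold change of -0.78 (SE 0.22, adjusted p = 0.0888 in edgeR). Bak1 was higher in all 3, by 1.37 on the log2 scale (SE 0.44, adjusted p = 0.135 in edgeR), from counts of no more than 158 reads a library. Mcl1 was lower at day 4 in all 3 libraries, with a log2 fold change of -0.78 (SE 0.33, adjusted p = 0.350 in edgeR).

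Total counts ran from 15721866 to 52056896 per library (median 44078906). Levels are given as CPM, the counts of a gene scaled to the normalized size of its library, and levels of different genes are compared only as CPM per kilobase of exon. Markers of FBs, ECs and TECs were present in every condition, with condition means of at least 676 CPM for Pdgfra, up to 50.5 for Cdh5 and at least 26.5 for Epcam. RNA of other cells was present too and differed between conditions. The summed level of 14 thymocyte genes ran from 313 to 1026 CPM at steady state, 145 to 183 at day 1, 32.1 to 49.5 at day 4 and 273 to 6501 at day 7. Ptprc, which encodes CD45, had 24.0 to 119 CPM at steady state and 21.6 to 606 at day 7. The summed level of 10 erythroid genes ran from 21387 to 36998 CPM at steady state, 4180 to 18306 at day 1, 10.97 to 15.6 at day 4 and 2957 to 8519 at day 7. None of these genes was at 0 in all libraries of a condition. In bulk RNA, fewer cells of a type and less RNA per cell cannot be told apart.

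Promoter sequences are shown first for Bcl2l11, Bmf and Mcl1, the 3 members whose libraries all stood below steady state in at least 1 comparison. None of the 3 passed the threshold in edgeR. Against steady state, libraries did not overlap for 3, 1 and 2 of the 10 members at days 1, 4 and 7. For all genes the shares were 15.8%, 14.7% and 7.49%. Bak1, whose day 1 libraries stood above steady state, is not shown. Each run ends at the base before the start site given by RefSeq (GRCm38.p6) and is written 5′ to 3′ on the strand of the gene, and capitals mark the only match to the FOXO motif GTAAACA. The Bcl2l11 run is chr2:128125788-128126037 (plus strand), the Bmf run chr2:118549687-118549786 (minus strand) and the Mcl1 run chr3:95658621-95658720 (plus strand).
Bcl2l11: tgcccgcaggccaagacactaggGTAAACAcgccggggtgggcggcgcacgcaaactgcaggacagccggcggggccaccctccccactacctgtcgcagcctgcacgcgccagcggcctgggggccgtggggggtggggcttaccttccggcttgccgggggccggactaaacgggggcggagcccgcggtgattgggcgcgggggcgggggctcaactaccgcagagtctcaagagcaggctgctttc
Bmf: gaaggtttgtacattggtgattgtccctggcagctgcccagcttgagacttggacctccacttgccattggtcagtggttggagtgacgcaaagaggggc
Mcl1: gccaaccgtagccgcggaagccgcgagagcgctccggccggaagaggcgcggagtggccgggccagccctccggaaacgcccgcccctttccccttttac

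RefSeq gave 15 windows, from 250 bases before to 50 bases after a start site, for 9 of the 10 members (no window was at hand for Bik). FOXO factors are known regulators of Bcl2l11, and GTAAACA, searched on both strands, occurred in 1 of the 15 windows, that of Bcl2l11, starting at position -227 from the start site. It occurred in 3.65% of 32851 windows of all genes. The STAT motif TTCNNNGAA occurred in none of the 15 and in 8.3% of all windows. The p53 half-site, which reads the same on both strands, occurred once, in 1 of the 3 Bmf windows at position -213, and in 8.36% of all windows. The window upstream of the first Bcl2l11 start site had 71.0% GC and that of Mcl1 65.7%, against 55.3% for Bmf and a median of 52.7% over all windows. No measurement of binding was made in these samples, so the matches are a description of the sequence alone.

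Of the anti-apoptotic genes, Bcl2l1, which encodes BCL-XL, had the highest level per kilobase at steady state, 31.8 ± 8.08 CPM per kb (SD, n = 4). Mcl1 had 19.3 ± 1.75, Bcl2 had 3.47 ± 1.64 and Bcl2l2, which encodes BCL-W, had 0.679 ± 0.241 CPM per kb. Over all 10 members the order at steady state was Bcl2l1, Bad, Mcl1, Bcl2l11, Bik, Bid, Bcl2, Bmf, Bcl2l2 and Bak1. Only 2 steps of that order separated the libraries completely: Mcl1 from Bcl2l11 (17.1 to 21.4 against 4.81 to 5.39 CPM per kb) and Bmf from Bcl2l2 (2.92 to 3.21 against 0.392 to 0.978). Bcl2l1, Bad and Mcl1 held the first 3 places in every condition. Bcl2l2 and Bak1 held the last 2 places in every condition.

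**Figure D1:**
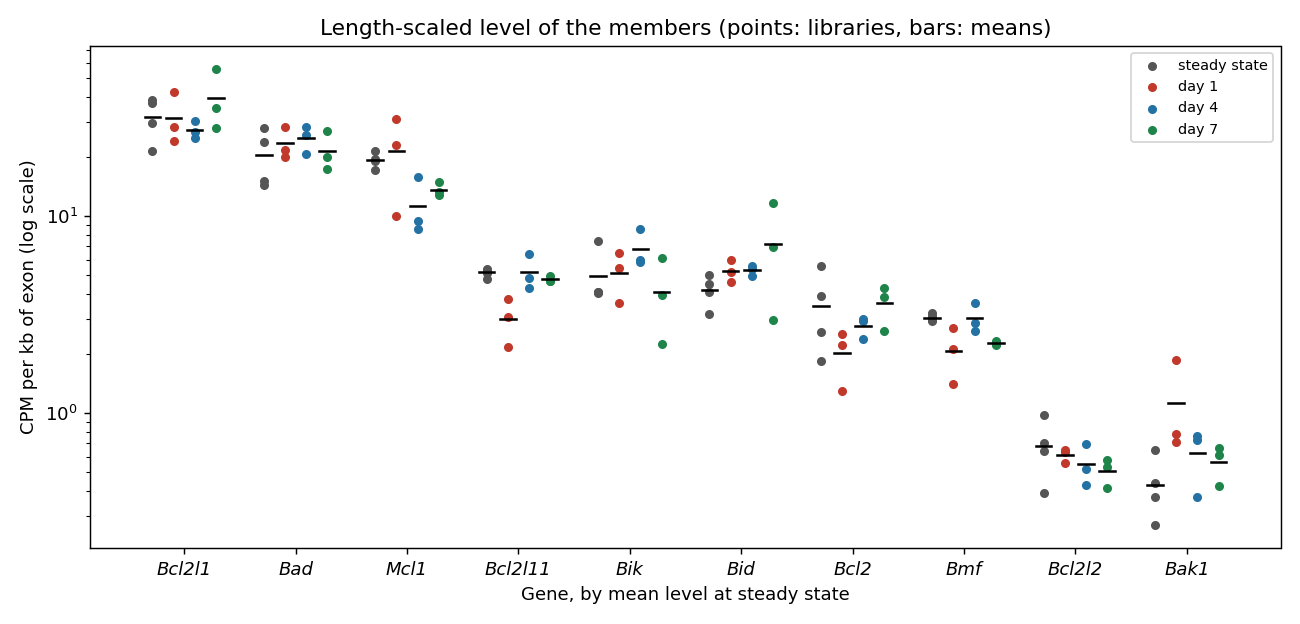
Levels of the 10 members in CPM per kilobase of exon (vertical axis, log scale), with genes ordered along the horizontal axis by their mean at steady state. Points are single libraries coloured by condition and bars are means, and Bcl2l1, Bad and Mcl1 lie above the other members at each time.

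Bcl2 (ENSMUSG00000057329, chr1:106538178-106714274 in GRCm38, minus strand), the founding survival gene of the family, had 51.1, 16.9, 35.8 and 23.5 CPM at steady state and 11.8, 20.3 and 23.0 at day 1. It had 27.3, 26.9 and 21.7 CPM at day 4 and 23.9, 39.5 and 35.5 at day 7. The steady-state libraries spread widely and took in 2 of the 3 day 1 libraries. The log2 fold change at day 1 was -0.79 (SE 0.36, 95% interval -1.57 to -0.01, adjusted p = 0.285 in edgeR). Without PBS day 1 replicate 2, the steady-state library with the most Bcl2, it was -0.42. At day 7 all 3 libraries were above those of day 1, narrowly, with a log2 fold change of 0.84 (SE 0.38, adjusted p = 0.199 in edgeR). It passed the threshold with the tag family as a covariate, at 1.44 (adjusted p = 0.0369 in edgeR), as did 7.09% of all genes. With the thymocyte score as a covariate it was 0.042 (adjusted p = 0.983 in edgeR). Tag families are groups of libraries by the tag that ends their column names, which the sources used here do not explain. Days 1 and 7 shared only the kk family, in day 1 replicate 1 and day 7 replicate 3. Tag family and time point therefore cannot be fully told apart in that comparison. The thymocyte score, like the summed level, was higher in all 3 libraries of day 7 than in all of day 1, so it and the time point cannot be told apart. Of the exonic bases of Bcl2, 6.09% overlap another gene on the opposite strand, where unstranded counting drops reads.

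Bcl2l1 (ENSMUSG00000007659, chr2:152780668-152831728, minus strand) had 171, 97.7, 178 and 135 CPM at steady state and 194, 110 and 130 at day 1. It had 114, 122 and 139 CPM at day 4 and 128, 256 and 163 at day 7. Libraries of all conditions overlapped, and the highest, day 7 replicate 2, was also the library with the most thymocyte RNA. The log2 fold changes against steady state were -0.01 at day 1 (95% interval -0.63 to 0.61), -0.22 at day 4 (-0.85 to 0.41) and 0.32 at day 7 (-0.30 to 0.95). BCL-XL is known for its part in the survival of red cell precursors, and erythroid RNA differed strongly between conditions. With an erythroid score as a covariate, Bcl2l1 was higher at days 1, 4 and 7, by 1.29, 3.93 and 0.92 on the log2 scale (adjusted p = 0.0279, 0.0381 and 0.0203 in edgeR). In that fit 6.29%, 3.85% and 5.66% of all genes passed in the same 3 comparisons. Between days 1 and 4 it was 2.63 (adjusted p = 0.0374 in edgeR), where 3.32% of all genes passed. The score did not overlap between day 4 and any other condition, nor between day 1 and steady state, so in the comparisons of days 1 and 4 with steady state and with each other the covariate and the condition cannot be told apart. At day 7 the score overlapped steady state only through replicate 2 (7.18, against 6.65 to 7.53). Replicates 1 and 3 lay below it, at 5.30 and 5.85, and the summed erythroid level did not overlap. There too the score and the condition cannot be fully told apart.

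Mcl1 (ENSMUSG00000038612, chr3:95658788-95663176, plus strand), whose protein turns over quickly, had 73.1, 58.5, 66.7 and 65.3 CPM at steady state and 34.3, 106 and 78.1 at day 1. It had 54.0, 32.3 and 29.3 CPM at day 4 and 50.8, 43.6 and 45.2 at day 7. All libraries of days 4 and 7 lay below all of steady state, and the day 1 libraries lay on both sides of it. The mean level was 65.9 ± 5.99 CPM before TBI (SD, n = 4). It was 72.9 ± 36.2 CPM on day 1, 38.5 ± 13.5 on day 4 and 46.6 ± 3.78 on day 7 (SD, n = 3). The ratio to steady state was 0.584 at day 4 and 0.707 at day 7, a log2 fold change of -0.50 with an SE of 0.32 (adjusted p = 0.602 in edgeR). Between days 1 and 4 the log2 fold change was -0.92 (SE 0.35, adjusted p = 0.252 in edgeR), with overlapping libraries. It was -1.26 without day 1 replicate 1 (adjusted p = 0.0467 in edgeR, past the threshold with 0.864% of all genes) and -0.55 without day 1 replicate 2 (adjusted p = 0.671 in edgeR). At day 4, 4 of 14 thymocyte genes and 8 of 10 erythroid genes fell below steady state past the threshold. With a covariate for the thymocyte score, the log2 fold change of Mcl1 at day 4 was -0.98 (adjusted p = 0.506 in edgeR), and with one for the erythroid score it was -3.40. Neither score overlapped between day 4 and steady state, so these values cannot separate the score from the condition.

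Bcl2l2 (ENSMUSG00000089682, chr14:54883377-54888234, plus strand) was low throughout, at 1.75 to 4.36 CPM over the 13 libraries, from 36 to 199 reads. Its log2 fold changes against steady state were -0.15, -0.31 and -0.43 at days 1, 4 and 7, and all intervals took in 0. Of its exonic bases, 13.31% overlap Gm20521 on the same strand, and reads there are left out of the counts.

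Within the 4 anti-apoptotic genes, levels per kilobase were also expressed as shares of their sum in each library. Bcl2l1 held 57.1 ± 3.79% before TBI (SD, n = 4) and 57.2 ± 18.8%, 65.4 ± 8.28% and 67.9 ± 7.63% on days 1, 4 and 7 (SD, n = 3). Mcl1 held 35.7 ± 4.93%, 38.1 ± 17.9%, 26.7 ± 7.96% and 24.9 ± 7.58% in the same order. The 3 day 1 libraries differed most: the Mcl1 share was 18.5% in replicate 1, 53.6% in replicate 2 and 42.2% in replicate 3. At day 4 it was 35.7%, 23.8% and 20.6%, and at day 7 it was 32.5%, 17.4% and 24.9%, against 31.0 to 42.1% at steady state. The shares of days 4 and 7 overlapped those of steady state, and they were not tested.

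**Figure D2:**
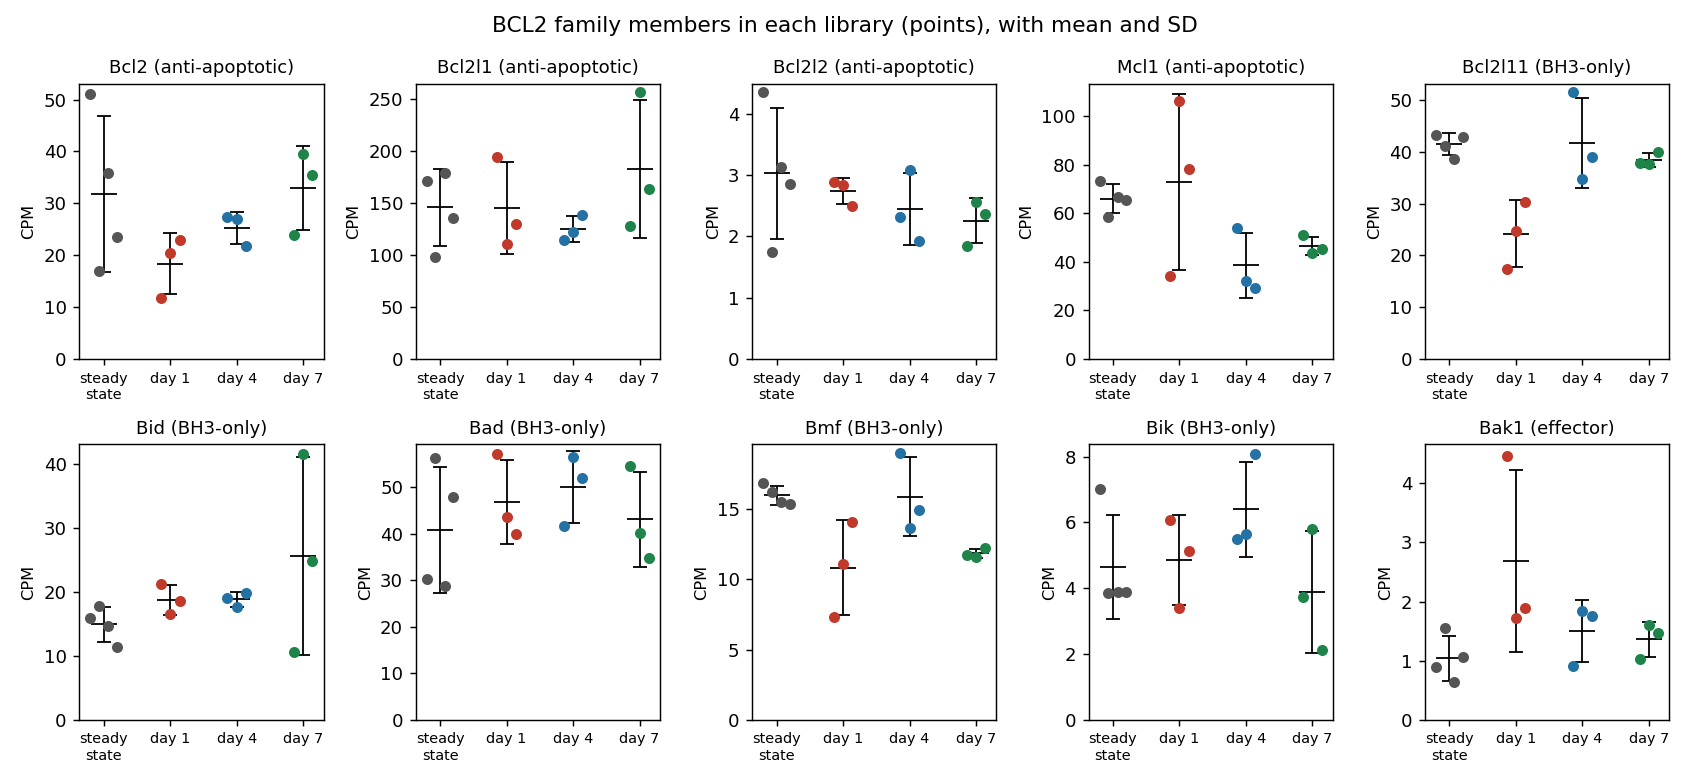
Level of each member in CPM (vertical axes, linear from 0) in the 13 libraries, grouped along the horizontal axes as steady state, day 1, day 4 and day 7. Points are libraries, the wide bar is the mean and the whiskers are the SD, and the panels of Bcl2l11 and Bmf show the day 1 libraries below those of steady state.

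Among the BH3-only genes, Bcl2l11 (ENSMUSG00000027381, chr2:128126038-128162547, plus strand) encodes BIM, which binds all the anti-apoptotic proteins. It had 43.3, 41.1, 38.6 and 42.9 CPM at steady state and 17.4, 24.8 and 30.4 at day 1. It had 51.4, 34.8 and 38.9 CPM at day 4 and 37.7, 37.6 and 40.0 at day 7. Steady state was tight at 41.5 ± 2.12 CPM (SD, n = 4), and day 1 at 24.2 ± 6.50 (n = 3) was 0.584 times that level. The 3 day 1 libraries were the lowest of all 13. Days 4 and 7 took in or overlapped the steady-state range, with log2 fold changes of 0.01 (95% interval -0.45 to 0.47) and -0.11 (-0.57 to 0.35). Against day 1, Bcl2l11 was higher at day 4 by 0.79 (SE 0.23, adjusted p = 0.134 in edgeR) and at day 7 by 0.67 (SE 0.23, adjusted p = 0.0934 in edgeR), with no overlap of libraries. These comparisons share the day 1 libraries and are not independent.

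DESeq2 placed Bcl2l11 past the threshold at day 1 against steady state, at -0.73 (adjusted p = 0.0115), and at days 4 and 7 against day 1, at 0.80 and 0.63 (adjusted p = 0.0120 and 0.0359). With the tag family as a covariate in edgeR, Bcl2l11 passed at day 1 (-0.86, adjusted p = 0.0306), as did 5.33% of all genes, and at day 7 against day 1 (0.90, adjusted p = 0.0462). Day 1 replicate 1 had the lowest Bcl2l11 and stood apart from the other day 1 libraries in other members as well. Without it the day 1 log2 fold change was -0.58 (adjusted p = 0.271 in edgeR), and without replicate 3 it was -0.97 (adjusted p = 0.0691 in edgeR). Thymocyte RNA was also lower at day 1 in all 3 libraries, and with a covariate for the thymocyte score the value was -0.81 (adjusted p = 0.138 in edgeR). With the erythroid score as a covariate it was -1.18 (adjusted p = 0.0798 in edgeR), but at day 4 against day 1 that covariate turned the log2 fold change from 0.79 to -0.018. Neither score overlapped between the conditions of these comparisons, so score and condition cannot be told apart.

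Bmf (ENSMUSG00000040093, chr2:118528757-118549687, minus strand) encodes a BH3-only protein that is held at the cytoskeleton. It had 16.9, 16.2, 15.5 and 15.3 CPM at steady state and 7.35, 11.1 and 14.1 at day 1. It had 19.04, 13.7 and 14.98 CPM at day 4 and 11.8, 11.6 and 12.2 at day 7. All libraries of days 1 and 7 lay below those of steady state, which spread by only 0.702 CPM (SD, n = 4). The log2 fold change was -0.56 at day 1 (SE 0.24, 95% interval -1.07 to -0.05, adjusted p = 0.251 in edgeR) and -0.43 at day 7 (SE 0.24, -0.94 to 0.08, adjusted p = 0.494 in edgeR). At day 4 it was -0.01, and its sign there changed with the normalization. Without day 1 replicate 1, the lowest library, the day 1 value was -0.34 (adjusted p = 0.567 in edgeR). All 3 libraries of day 7 lay below all 3 of day 4, with a log2 fold change of -0.42 (SE 0.25, adjusted p = 0.407 in edgeR).

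Bid (ENSMUSG00000004446, chr6:120891930-120916853, minus strand) encodes the protein that caspase-8 cleaves to link death receptors to mitochondria. It had 15.9, 17.8, 14.7 and 11.3 CPM at steady state and 21.2, 16.4 and 18.5 at day 1. It had 19.04, 17.5 and 19.9 CPM at day 4 and 10.6, 41.4 and 24.8 at day 7. The day 7 libraries included both the lowest and the highest of all 13. Their summed thymocyte levels followed the same order, at 273, 6501 and 2764 CPM. Day 4 had the least thymocyte RNA, at 32.1 to 49.5 CPM, with Bid at 17.5 to 19.9 CPM against 11.3 to 17.8 at steady state. The cause of the spread at day 7 was not tested. The log2 fold change at day 7 was 0.77 (SE 0.35, 95% interval 0.03 to 1.52, adjusted p = 0.348 in edgeR). It was 1.15 without replicate 1 (adjusted p = 0.0340 in edgeR, where 2.99% of all genes passed), 0.27 without replicate 2 and -0.06 with the thymocyte score as a covariate (adjusted p = 0.972 in edgeR). With the erythroid score as a covariate it was 1.17 (adjusted p = 0.0486 in edgeR, where 5.66% of all genes passed). That score overlapped between day 7 and steady state only through day 7 replicate 2. Of the exonic bases of Bid, 17.69% overlap Bcl2l13 on the opposite strand.

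**Figure D3:**
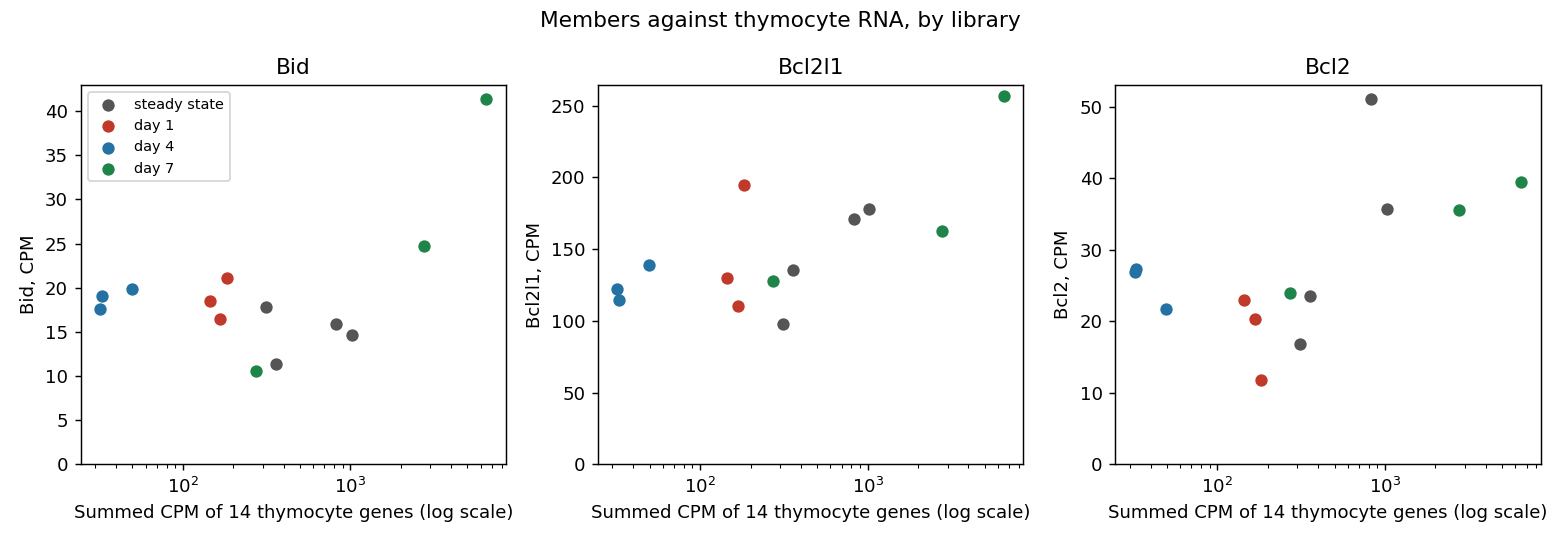
Levels of Bid, Bcl2l1 and Bcl2 in CPM (vertical axes) against the summed CPM of 14 thymocyte genes (horizontal axes, log scale) in the 13 libraries, coloured by condition. The day 7 libraries spread from 273 to 6501 CPM of thymocyte RNA, and the library at 6501 has the highest Bid (41.4 CPM) and Bcl2l1 (256 CPM). The day 4 libraries, with the least thymocyte RNA (32.1 to 49.5 CPM), have 17.5 to 19.9 CPM of Bid.

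Bad (ENSMUSG00000024959, chr19:6941861-6951898, plus strand) encodes a BH3-only protein that survival kinases switch off by phosphorylation. Its level was 28.8 to 56.3 CPM at steady state, 40.0 to 57.1 at day 1, 41.6 to 56.5 at day 4 and 34.8 to 54.5 at day 7. The conditions overlapped in every comparison, and the log2 fold changes against steady state were 0.20, 0.30 and 0.08, with intervals within -0.51 to 0.88. Gpr137 overlaps 25.76% of its exonic bases on the opposite strand, the largest such share among the members.

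Bik (ENSMUSG00000016758, chr15:83526862-83544635, plus strand) encodes a BH3-only protein of the endoplasmic reticulum. It had 7.02, 3.85, 3.87 and 3.87 CPM at steady state and 6.08, 3.39 and 5.13 at day 1. It had 5.49, 5.66 and 8.07 CPM at day 4 and 3.73, 5.80 and 2.11 at day 7. All conditions overlapped, and the log2 fold changes against steady state were 0.07 (SE 0.38), 0.46 (SE 0.37) and -0.26 (SE 0.38).

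The effector Bak1 (ENSMUSG00000057789, chr17:27019810-27029009, minus strand) had the lowest level per kilobase at steady state, 0.432 ± 0.158 CPM per kb (SD, n = 4). It had 0.899, 1.55, 0.646 and 1.07 CPM at steady state and 4.47, 1.72 and 1.89 at day 1. It had 0.904, 1.84 and 1.76 CPM at day 4 and 1.03, 1.598 and 1.46 at day 7. The day 1 libraries lay above steady state, with replicates 2 and 3 just above its highest library and replicate 1 far above. Counts ran from 14 to 158 reads a library, so sampling error adds to the spread. The mean at day 1 was 2.59 times that at steady state, with a 95% interval of 0.42 to 2.32 on the log2 scale. DESeq2 gave 1.44 (adjusted p = 0.0295) and the tag family as a covariate 1.45 (adjusted p = 0.0297 in edgeR). Without day 1 replicate 1 the log2 fold change was 0.80 (adjusted p = 0.496 in edgeR). Against day 1, Bak1 was lower at day 7 in all libraries, with a log2 fold change of -0.98 (SE 0.47, adjusted p = 0.228 in edgeR), and passed with the tag family as a covariate (-1.52, adjusted p = 0.0451 in edgeR). Without day 1 replicate 1 it was -0.41 (adjusted p = 0.639 in edgeR). The summed level of the neutrophil genes was 23.8 to 49.7 CPM at day 1 and 5.25 to 31.4 at steady state. Of these, 2 of 9 tested passed, and Csf3r, a neutrophil receptor, rose from 0.0484 to 0.285 CPM at steady state to 4.41 to 5.91 at day 1. Their part in the Bak1 level was not tested. Ggnbp1 overlaps 14.83% of its exonic bases on the opposite strand.

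**Figure D4:**
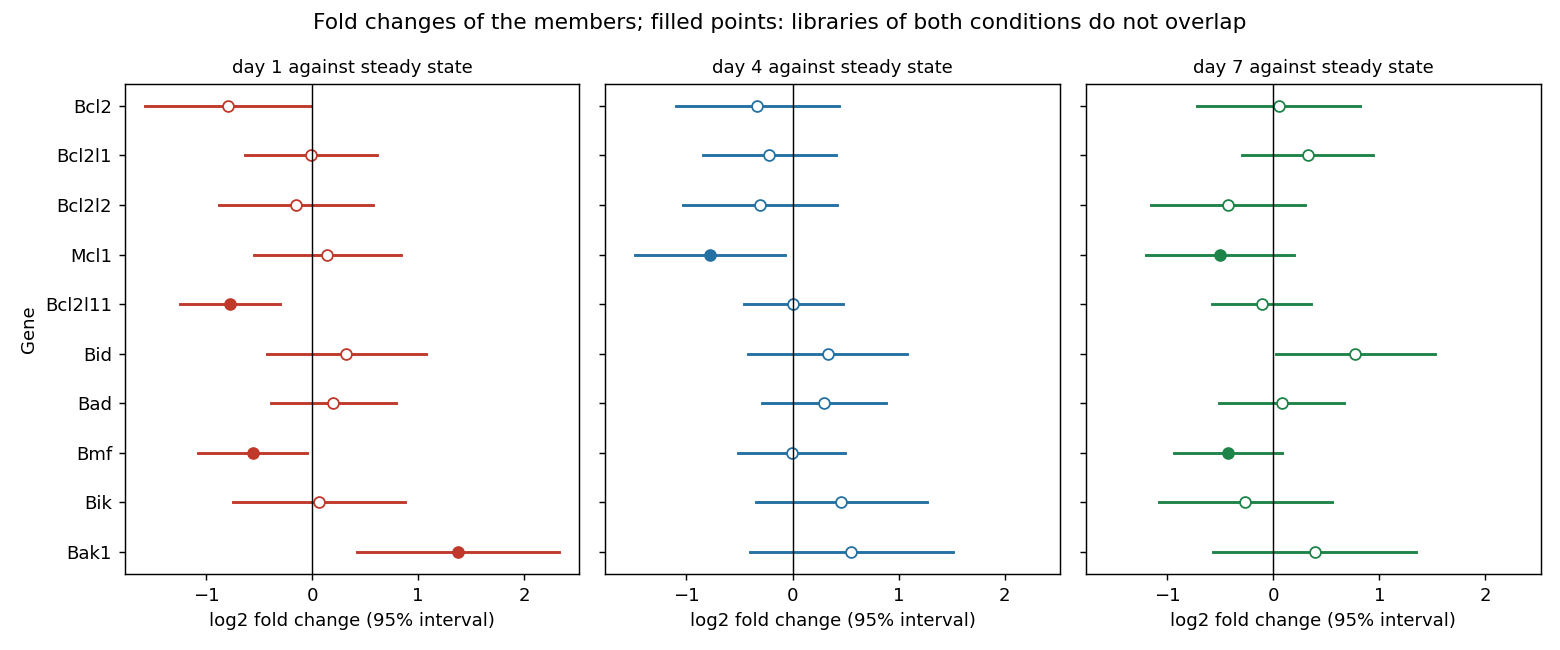
Log2 fold changes of the 10 members at days 1, 4 and 7 against steady state (horizontal axes, with 95% intervals as lines). Filled points mark genes whose libraries do not overlap between both conditions, which are Bcl2l11, Bmf and Bak1 at day 1, Mcl1 at day 4, and Mcl1 and Bmf at day 7.

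Across the members, the counts stood as follows against the whole table of 19984 genes tested. At day 1 against steady state 0 of 10 passed, where 2.35% of all genes did, and 4 had an unadjusted p under 0.05, where 17.2% of all genes did. Libraries did not overlap for 3 of 10 members, where they did not for 15.8% of all genes. The median log2 fold change of the members was 0.03, and that of all genes -0.10.

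DESeq2 placed 0 of 10 past the threshold at day 4 against steady state, where it called 3.36% of all genes. In edgeR 0 of 10 passed there, where 0.29% of all genes did. An unadjusted p under 0.05 was found for 1 member, Mcl1, against 13% of all genes, and libraries of 1 member did not overlap, against 14.7%. At day 7 against steady state DESeq2 placed 0 of 10 past it, where it called 5.42% of all genes. In edgeR 0 of 10 passed, where 0.005% of all genes (1 gene) did. An unadjusted p under 0.05 was found for 1 member, Bid, against 13.5% of all genes, and libraries of 2 members did not overlap, against 7.49%. These comparisons share their 4 steady-state libraries.

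Between time points after TBI, 0 of 10 members passed in edgeR for days 4 and 1, days 7 and 1, and days 7 and 4, where 1.43%, 8.13% and 3.9% of all genes did. DESeq2 placed 1, 1 and 0 members past the threshold, where it called 4.75%, 14.7% and 9.61% of all genes. An unadjusted p under 0.05 was found for 3, 2 and 0 members, where it was for 13.7%, 23.9% and 18.7% of all genes. Libraries did not overlap for 1, 3 and 1 members, against 26.3%, 27.5% and 26.2% of all genes.

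Other genes of the pathway gave a wider range. Of the other family genes, 14 of 15 were tested (Bcl2l10 was too low), and 1 rose and 1 fell at day 1. The effector Bax rose from 45.4, 57.0, 31.5 and 45.3 CPM at steady state to 139, 114 and 121 at day 1, with a log2 fold change of 1.47 (SE 0.22, adjusted p = 0.00266 in edgeR). All 3 libraries of each later time also lay above steady state, at 71.7 to 88.9 CPM on day 4 and 60.5 to 93.1 on day 7, with log2 fold changes of 0.86 and 0.75 (adjusted p = 0.146 and 0.141 in edgeR). Bnip3l, which encodes a mitophagy receptor that clears mitochondria from red cell precursors, fell at day 1 by 1.18 on the log2 scale (SE 0.23, adjusted p = 0.0133 in edgeR). Erythroid RNA fell in the same libraries, with 4 of 10 erythroid genes past the threshold, and its part in the Bnip3l level was not tested.

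Bbc3 and Pmaip1, which encode the p53-induced BH3-only proteins PUMA and NOXA, did not pass. Bbc3 had 14.9, 11.6, 11.96 and 9.49 CPM at steady state and 2.49, 21.6 and 19.9 at day 1, with replicate 1 apart from the other two. Pmaip1 had 52.4, 10.3, 28.7 and 9.54 CPM at steady state and 32.6, 24.1 and 31.1 at day 1. Their log2 fold changes at day 1 were 0.29 (SE 0.61) and 0.21 (SE 0.51). At day 7 none of the 14 passed in edgeR, while 10 had an unadjusted p under 0.05, against 13.5% of all genes. These included Bcl2a1a, Bcl2a1b and Bcl2a1d, at 7 to 70 reads a day 7 library, and Hrk, at 0 to 1. They also included Bax and Bcl2l12, which were higher at day 7, by 0.75 and 0.69 on the log2 scale. The median log2 fold change of the 14 was -0.999, and that of all genes was 0.0024.

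Of 21 genes of the apoptosis machinery downstream and upstream of mitochondria, 1 passed at day 1 against steady state, 2 at day 7 against day 1 and 1 at day 7 against day 4, where 2.35%, 8.13% and 3.9% of all genes did. Birc5, which encodes the cell-cycle protein survivin, fell at day 1 by 2.97 on the log2 scale (SE 0.72, adjusted p = 0.0493 in edgeR). It was higher at day 7 than at day 1 by 5.57 and than at day 4 by 4.45 (adjusted p = 0.00273 and 0.0117 in edgeR). Its level at day 7 ran from 8.06 to 107 CPM, and all 14 thymocyte genes also rose in both comparisons. Tnfrsf10b, a death receptor that p53 induces, was lower at day 7 than at day 1, with a log2 fold change of -1.58 (SE 0.32, adjusted p = 0.0130 in edgeR), and at day 1 it was 1.21 above steady state (SE 0.30, adjusted p = 0.0527 in edgeR). Of 20 listed regulators of the members, among them kinases, ubiquitin ligases and transcription factors, 0 passed in any of the 6 comparisons in edgeR. In these comparisons 1, 1, 0, 3, 0 and 1 of the 20 had an unadjusted p under 0.05. Of all genes, 17.2%, 13%, 13.5%, 13.7%, 23.9% and 18.7% did, in the same order.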

How the data were processed

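CD45- thymic stroma of 13 samples was profiled by bulk RNA-seq of polyA RNA. Per the labels, the authors used Trimmomatic 0.38, then STAR 2.7.0e on GRCm38.p5 and featureCounts 1.6.3, and deposited whole-number gene counts that were not normalized. By default featureCounts ignores strand and leaves out reads that overlap several genes or align to several places. Symbols came from the GENCODE M21 table (53274 of 53379 identifiers matched), and coordinates and exonic lengths from the deposited table.

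All libraries entered 1 fit in edgeR 4.0.16 (R 4.3.3) with TMM normalization, filterByExpr() by condition (19984 genes kept) and the quasi-likelihood F-test, two-sided. Benjamini-Hochberg adjustment was over all genes tested, with a threshold of 0.05 and no threshold on fold. SEs were computed from the log2 fold change and F. The common dispersion was 0.177. Total counts of 15721866 to 52056896 set the precision of low genes. The steps were tested on simulated data. No library was a copy of another.

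Alternatives were DESeq2 1.42.0, RLE normalization, other filters, only the 2 conditions compared, thymocyte or erythroid scores or the tag family as a covariate, the replicate block, and each library left out. The members, gene lists and tests were chosen with earlier results of these data known. Named genes were all members, Bax, Bbc3, Pmaip1, listed pathway genes past the threshold, and cell type markers. A search for genes of like pattern named none, since it required a member past the threshold. Protein sequences were not used here. Plots used Python 3.11.15 and matplotlib 3.10.9.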

Additional observations from a re-analysis of the deposited data

Results flagged for a closer look

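Bik at steady state had 7.02 CPM in PBS day 1 replicate 2 and 3.85 to 3.87 in the other 3 libraries, a gap of 0.993 of the whole range and above Dixon's 95% critical value. The 4 steady-state libraries were examined for each of the 10 members, and chance gives 0.5 such values. No cause was tested.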

How the results depend on the processing

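Of 37 log2 fold changes, 26 did not pass the threshold under any alternative and 16 kept their direction under all. The 37 included all changes of the members against steady state. Changes between time points entered only if libraries did not overlap or the unadjusted p in edgeR was under 0.05, so these were chosen by their own result. DESeq2 placed 2 members past the threshold at day 1 against steady state, 1 at day 4 against day 1 and 1 at day 7 against day 1. In those comparisons it called 7.5%, 4.75% and 14.7% of all genes. The tag family as a covariate gave 2 at day 1 and 3 at day 7 against day 1 (5.33% and 7.09% of all genes). Days 7 and 1 shared only the kk family, so tag and time point cannot be fully told apart there. The erythroid score as a covariate gave 1 at day 1, 1 at day 4, 2 at day 7 and 1 at day 4 against day 1 (6.29%, 3.85%, 5.66% and 3.32% of all genes). Leaving out 1 library gave 0 to 1 members at day 7 against steady state and 0 to 1 at day 4 against day 1, and 0 in the other comparisons. The causes were not tested.

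Direction turned for the changes given next, among them the larger ones of Bid at day 7, Bcl2l11 and Bmf at day 4 against day 1, and Bmf at day 7 against day 4. At day 1, Bcl2l1 was 0.054 in DESeq2, 0.054 with RLE normalization, 0.0016 without a filter and 0.0066 with at least 10 counts in every library. With a covariate for the thymocyte score, the day 1 values were 0.43 for Bcl2l1, 0.13 for Bcl2l2 and -0.065 for Bad. At day 4 they were 0.55 for Bcl2, 0.72 for Bcl2l1, 0.27 for Bcl2l2, -0.060 for Bcl2l11 and -0.32 for Bad, and at day 7 -0.31 for Bcl2, -0.12 for Bcl2l1 and -0.064 for Bid. With the erythroid score, the day 1 values were 1.29 for Bcl2l1, 0.59 for Bcl2l2, -0.77 for Mcl1 and -0.037 for Bad. At day 4 they were 1.32 for Bcl2, 3.93 for Bcl2l1, 1.93 for Bcl2l2, -1.19 for Bcl2l11 and -0.51 for Bad, and at day 7 -0.038 for Bad and 0.24 for Bik. Between times they were -0.018 for Bcl2l11 and -0.33 for Bmf at day 4 against day 1, and 0.70 for Bmf at day 7 against day 4. With the tag family, Mcl1 was -0.081 at day 1, Bmf 0.0048 at day 4, and Bcl2l11 0.039, Bad -0.21 and Bak1 -0.069 at day 7. At day 4, Bmf was 0.057 in DESeq2, 0.062 with RLE and 0.094 with only the 2 conditions compared, and Bcl2l11 was -0.00252 with at least 10 counts in every library.

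Leaving out 1 library at a time gave these ranges where direction turned. At day 1 they were -0.28 to 0.18 for Bcl2l1, -0.34 to 0.13 for Bcl2l2, -0.23 to 0.49 for Mcl1 and -0.12 to 0.38 for Bik. At day 4 they were -0.54 to 0.091 for Bcl2, -0.37 to 0.0096 for Bcl2l1, -0.52 to 0.020 for Bcl2l2, -0.052 to 0.13 for Bcl2l11 and -0.041 to 0.11 for Bmf. At day 7 they were -0.16 to 0.36 for Bcl2, -0.12 to 0.28 for Bad and -0.61 to 0.049 for Bik.

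The replicate block could be fitted only among the 9 libraries after TBI, because the steady-state columns carry no replicate numbers of the labels. It left 0 members past the threshold in each comparison. Deviations of same-numbered libraries from their condition means had correlations of -0.843, -0.596 and -0.567 for days 4 and 1. For days 7 and 1 they were -0.198, -0.407 and 0.183, and for days 7 and 4 they were 0.211, 0.268 and -0.318. The labels state no pairing, and the numbers were not taken as pairs. Levels per kilobase at steady state moved by less than 1 SD in all 60 alternatives tried. Leaving out 1 of the 4 steady-state libraries cannot move their mean by 1 SD, so that outcome was fixed in advance. Only RLE normalization and scaling by total counts alone could have shown a larger move. Levels of the other conditions were not examined in this way. Low counts limit Bak1 and Bcl2l2 most.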
